A study of Equus caballus with 6 samples.

Results

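CCL2, WNT5B and IL4RA were followed across RNA-seq libraries of equine tenocytes with and without siRNA against scleraxis (Scx), the basic helix-loop-helix transcription factor used as a tendon marker. They are 3 of the 26992 entries of the deposited table, taken by identifier (ENSECAG00000023949, ENSECAG00000016516 and ENSECAG00000021525), and all 3 passed the filter on low values. They were chosen by their difference between the groups in normalized counts, so that difference is given below as a description and not as a test. The tenocytes, from superficial digital flexor tendon of 1 female horse aged 5 years, were used at passage 3, and were given by nucleofection either the Scx siRNA or a non-targeting scramble siRNA (3 libraries each). Both groups were grown on silicone membranes coated with type I collagen and loaded for 3 days, 2 h a day, at 1% uniaxial strain and 0.5 Hz. The libraries of a group are therefore repeats in cells of the same animal, p-values measure only the spread between these repeats, and no unstrained or untransfected group was included.

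CCL2 (monocyte chemoattractant protein 1) is a secreted chemokine that draws monocytes to injured tissue by way of the receptor CCR2, and fibroblasts release it under inflammatory cytokines. WNT5B is a secreted Wnt ligand that binds Frizzled receptors and is best known for signalling that does not use beta-catenin. IL4RA, the alpha chain of the interleukin-4 receptor, is the membrane protein through which the cytokines IL4 and IL13 activate STAT6. In RefSeq's table for the TB-T2T assembly, the 3 protein-coding genes on one side of CCL2 include the chemokine genes CCL11 and CCL8, and the gene next to IL4R (RefSeq's symbol for IL4RA) is that of another cytokine receptor, IL21R. The files do not pair these neighbours with identifiers, so their values were not analysed here.

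The siRNA that set the groups apart is shown because every difference below is between libraries with and without it. Both strands are written 5′ to 3′ and are 21 nt long, with 19 nt paired in the duplex, and the capitals mark the seed (bases 2 to 8) of the antisense strand, the strand complementary to the Scx mRNA.
sense: agagaaaguugagcaaggatt
antisense: uCCUUGCUcaacuuucucugg

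Reads on the Scx mRNA numbered 5, 7 and 25 with scramble and 5, 0 and 0 with Scx siRNA, so its normalized count in the first Scx siRNA library lay within the scramble range. The study measured a significant knockdown of Scx by qPCR in the same samples. It also reported a significant decrease of the RNA-seq reads on the Scx mRNA, and ascribed the low coverage of this mRNA to GC bias. Counts this small do not show how far Scx fell in a single library. Libraries had 6539504 to 12213421 reads on genes. Fewer entries had reads in every Scx siRNA library (11026 to 11183) than in any scramble library (13151 to 13392), also where the Scx siRNA library was the deeper, and the part of this in the values of low-count genes such as WNT5B was not tested. Of the 11 tendon fibroblast markers checked, 9 had reads in all 6 libraries, the exceptions being Scx and TNMD, which was listed at 0 in all 6. SELE, an endothelial adhesion gene, was also at 0 in all 6, and no leukocyte marker is paired with an identifier, so the part of other CCL2-producing cells was not tested. In bulk RNA a change in the share of cells that express a gene and a change in RNA per cell cannot be told apart. The second Scx siRNA library stood apart from the other 2 of its group. For 51.1% of the 11517 genes tested it was the library farthest from the others on the log2 scale, against 22.0% and 26.2% for the first and for the third.

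CCL2, the ligand of the set that acts on leukocytes, was higher with Scx siRNA. Its normalized counts were 869, 1270 and 1035 in the scramble libraries, in the order of their replicate numbers, and 3881, 3361 and 3824 in the Scx siRNA libraries. Every Scx siRNA library lay above every scramble library, an order shared by 22.3% of the genes tested. The closest pair of libraries across the groups differed 2.65-fold. The group means were 1058 ± 201 and 3688 ± 285 normalized counts (SD, n = 3 each), a 3.49-fold difference and a log2 fold change of 1.81 (standard error 0.19) on the log2(normalized count + 1) scale. This fit pools the spread of both groups, and with weights by group the standard error was 0.33. These values rest on 891 to 1619 reads per scramble library and 2768 to 3372 per Scx siRNA library.

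**Figure D1:**
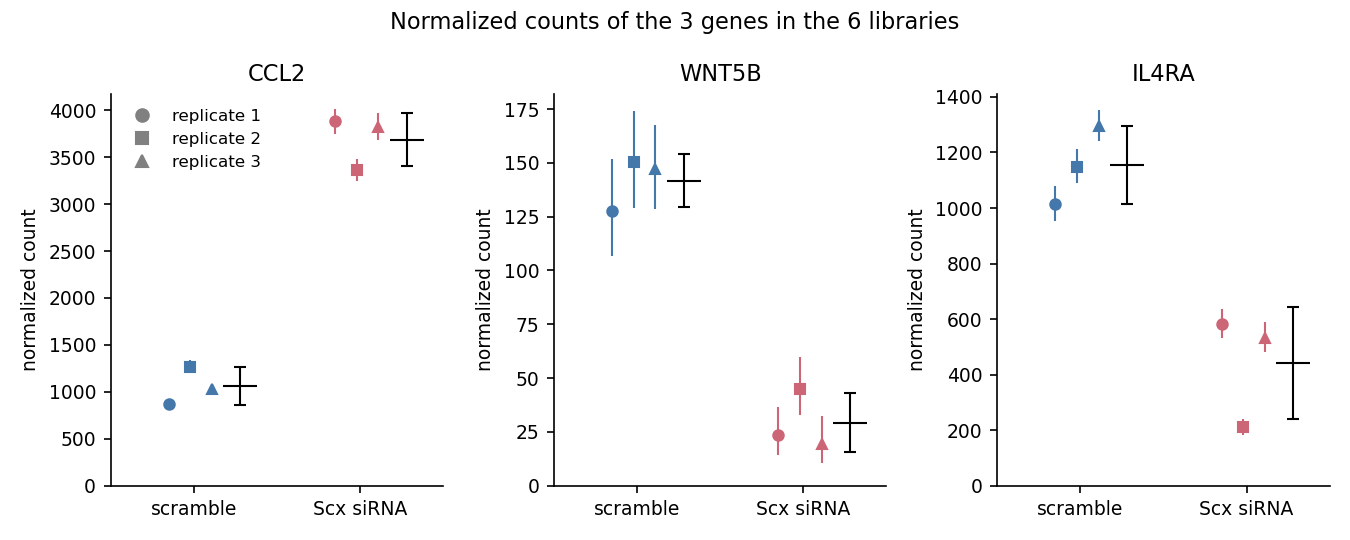
Normalized counts (vertical axes, from 0) of CCL2, WNT5B and IL4RA in the 3 scramble (blue) and 3 Scx siRNA (red) libraries, with 95% Poisson intervals on each point and the group mean ± SD in black. CCL2 lies at 3361 to 3881 with Scx siRNA against 869 to 1270 with scramble, WNT5B at 19.3 to 44.8 against 128 to 150.3, and IL4RA at 211 to 582 against 1015 to 1296.

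WNT5B had the fewest reads and the largest fold difference of the 3 genes. Its normalized counts were 128, 150.3 and 147 in the scramble libraries and 23.4, 44.8 and 19.3 in the Scx siRNA libraries. Every Scx siRNA library was below every scramble library, an order shared by 25.8% of the genes tested, and the second Scx siRNA library was the highest of its group. The group means were 142 ± 12.2 and 29.2 ± 13.7 (SD, n = 3 each), so the Scx siRNA mean was 20.6% of the scramble mean. The log2 fold change, the difference between the groups' mean log2(normalized count + 1), was -2.33 (standard error 0.42). The Scx siRNA values rest on 19, 45 and 14 reads. The exact 95% Poisson interval of the lowest, which covers counting error only because PCR copies are not independent molecules, ran from 10.6 to 32.4 normalized counts. The interval of the highest ran from 32.7 to 60.0 and stayed below the lowest bound of a scramble library, 107.

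IL4RA, the receptor, was lower with Scx siRNA, and the size of its difference depended on 1 library. Its normalized counts were 1015, 1149 and 1296 in the scramble libraries and 582, 211 and 532 in the Scx siRNA libraries. The groups did not overlap, with Scx siRNA the lower as in 25.8% of the genes tested. The second Scx siRNA library lay far below the other 2, in contrast to WNT5B, for which the same library was the highest. The group means were 1153 ± 140.5 and 442 ± 201 (SD, n = 3 each), the Scx siRNA mean being 38.3% of the scramble mean, or -1.38 as the log2 of that ratio. The log2 fold change from the mean log2 values was -1.51 (standard error 0.38). Without the second Scx siRNA library the log2 fold change of IL4RA was -1.04 (standard error 0.14), while those of CCL2 and WNT5B were 1.88 and -2.68. Without the first Scx siRNA library, in which the Scx count lay within the scramble range, the log2 fold changes were 1.78 for CCL2, -2.22 for WNT5B and -1.77 for IL4RA.

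All 3 genes had groups that did not overlap, as did 48.1% of the genes tested in either direction. Their order follows from how the genes were picked. Of all genes tested, 25.0% were called at an adjusted p under 0.05 in limma (1487 higher and 1395 lower). A share of 9.84% was called and also had a limma log2 fold change of 1.5 or more in size. The study applied that limit to its DESeq2 values. IL4RA just reached a size of 1.5 at -1.51. It fell short of it by the ratio of the group means (-1.38) and with the recovered reads in edgeR (-1.42) and DESeq2 (-1.38). In the study's own DESeq2 comparison IL4RA also fell short of the limit, whereas CCL2 and WNT5B reached it. Ranked by log2 fold change among the 11517 genes, CCL2 was number 257 from the highest, WNT5B number 705 from the lowest and IL4RA number 1760 from the lowest. The rank of WNT5B is read against a trend with level, since genes with 50 to 100 normalized counts on average had a median log2 fold change of -0.58 and the lowest 5% of these 1391 genes lay at or below -2.57. Whether WNT5B passed this bound depended on the fit, since with edgeR WNT5B was at -2.30 and the bound at -2.08 (median -0.38), and with cyclic loess they were at -1.94 and -2.13 (median -0.19). CCL2 stood above the value that bounds the highest 5% of the 1713 genes with 1000 to 5000 normalized counts, 1.68 (median 0.38). IL4RA stood below the value that bounds the lowest 5% of the 1531 genes with 500 to 1000, -1.34 (median 0.18), and both also stood beyond these bounds with edgeR and with cyclic loess. Without the second Scx siRNA library IL4RA was at -1.04, and no bound was computed for that fit. As the 3 genes were picked by this difference, these positions only describe them.

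**Figure D2:**
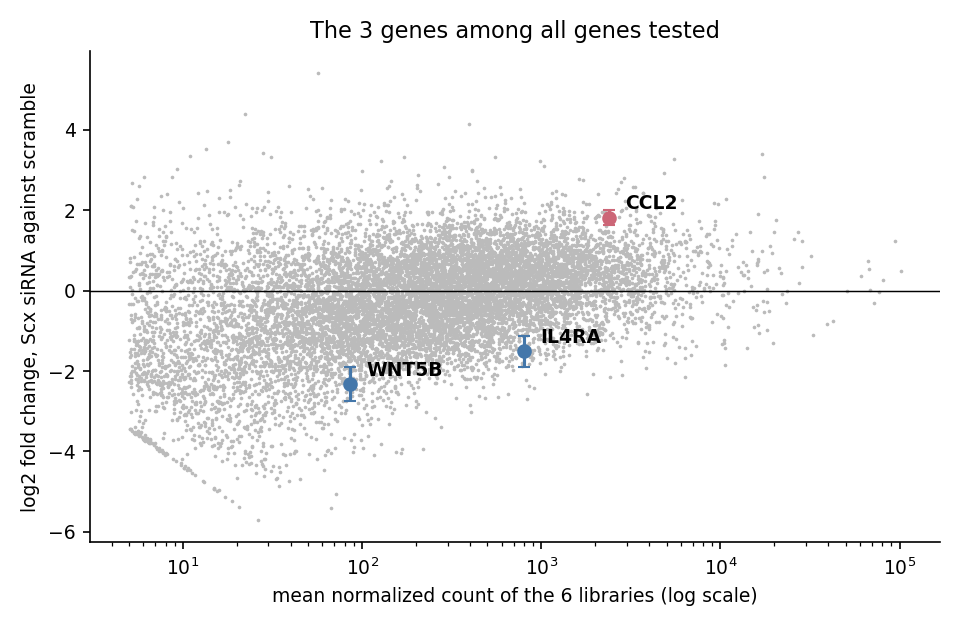
Log2 fold change of Scx siRNA against scramble (vertical axis) and mean normalized count of the 6 libraries (horizontal axis, log scale) for the 11517 genes tested (grey) and for CCL2, WNT5B and IL4RA (coloured, bars are standard errors). CCL2 lies in the upper part at 1.81 (number 257 from the highest) and IL4RA in the lower part at -1.51 (number 1760 from the lowest). WNT5B, at -2.33, lies among many low-count genes with negative values.

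The 3 genes differed in how they varied between repeats. Across all genes tested the Scx siRNA libraries varied more, with a median SD of 0.59 on the log2 scale against 0.16 with scramble. For CCL2 the scramble libraries were the more variable, with a coefficient of variation of 19.03% where counting alone gives 2.77%, against 7.73% in the Scx siRNA libraries where counting alone gives 1.81%. On the log2 scale the SD of CCL2 with Scx siRNA was 0.11, while the median gene with 1000 to 5000 normalized counts had 0.38. For IL4RA the coefficient of variation was 12.2% with scramble and 45.5% with Scx siRNA, where counting alone gives 2.64% and 5.33%. Its SD of 0.81 on the log2 scale with Scx siRNA compares with a median of 0.41 for genes of its level. For WNT5B the scramble libraries varied by 8.60%, close to the 7.57% that counting alone gives, and the Scx siRNA libraries by 47.0% against 19.8%. Its SD of 0.62 on the log2 scale with Scx siRNA was below the median of 0.79 for genes of its level. In all 3 genes the second Scx siRNA library was the farthest from the other 2 of its group, being the lowest for CCL2 and IL4RA and the highest for WNT5B.

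Ratios of reads between the 3 genes within a library do not depend on the scaling between libraries. Since transcript length was not taken into account, only their change between libraries is read here and not their size. The ratio of CCL2 to IL4RA reads was 0.856, 1.11 and 0.799 in the scramble libraries and 6.66, 15.9 and 7.19 in the Scx siRNA libraries, a 10.8-fold difference of the means. The ratio of CCL2 to WNT5B reads was 6.80, 8.45 and 7.04 with scramble and 166, 74.9 and 198 with Scx siRNA, 19.7-fold higher in the mean. Both ratios separated the groups. They had to, since the genes were picked by this difference, and CCL2 was higher and IL4RA and WNT5B lower without overlap. The ratio of IL4RA to WNT5B did not separate the groups. It was 7.95, 7.64 and 8.81 with scramble and 24.9, 4.71 and 27.5 with Scx siRNA. Set against the scramble libraries, reads of WNT5B were thus reduced more than those of IL4RA in replicates 1 and 3 of Scx siRNA, and less in replicate 2.

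**Figure D3:**
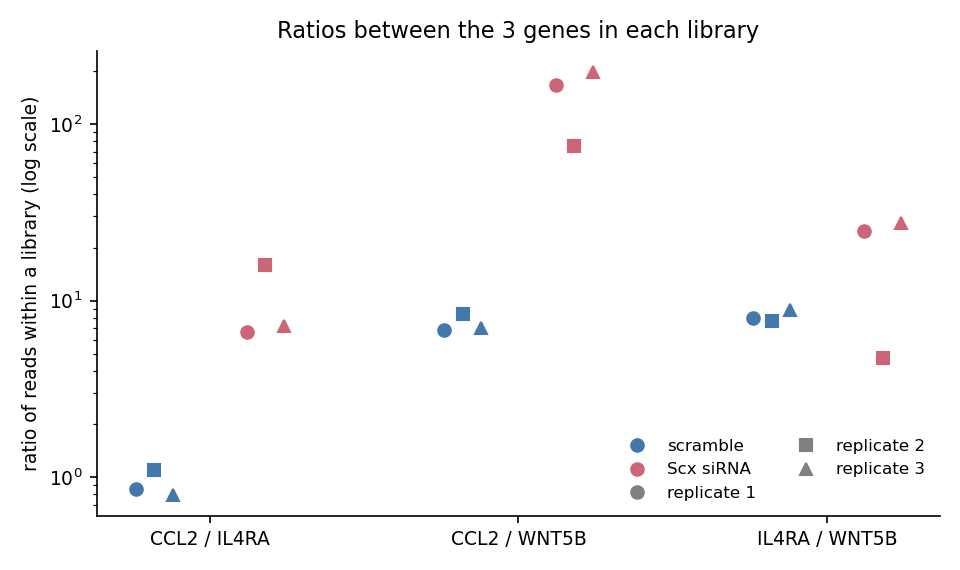
Ratios of reads between CCL2, IL4RA and WNT5B within each library (vertical axis, log scale) for scramble (blue) and Scx siRNA (red), with symbols by replicate. CCL2 / IL4RA (0.799 to 1.11 against 6.66 to 15.9) and CCL2 / WNT5B (6.80 to 8.45 against 74.9 to 198) separate the groups, and IL4RA / WNT5B does not because the second Scx siRNA library lies at 4.71.

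The direction of each of the 3 genes was the same under all 18 alternatives run, but their sizes moved with the scaling. Other filters, the weight for each group and the replicate block cannot change a log2 fold change. Their agreement was fixed in advance and shows no stability, though they are counted among the 18 here and below. Scaling to total reads gave log2 fold changes of 1.53 for CCL2, -2.61 for WNT5B and -1.79 for IL4RA. The median of all genes tested shifted with it from -0.20 to -0.48. Quantile normalization gave 1.47, -1.94 and -1.64 in the same order. Relative to the median of all genes, CCL2 lay between 1.48 and 2.16, WNT5B between -2.53 and -1.90 and IL4RA between -1.64 and -0.90 over these alternatives. A size of at least 1.5 was reached in 16 of the 18 alternatives for CCL2, in 18 for WNT5B and in 13 for IL4RA.

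**Figure D4:**
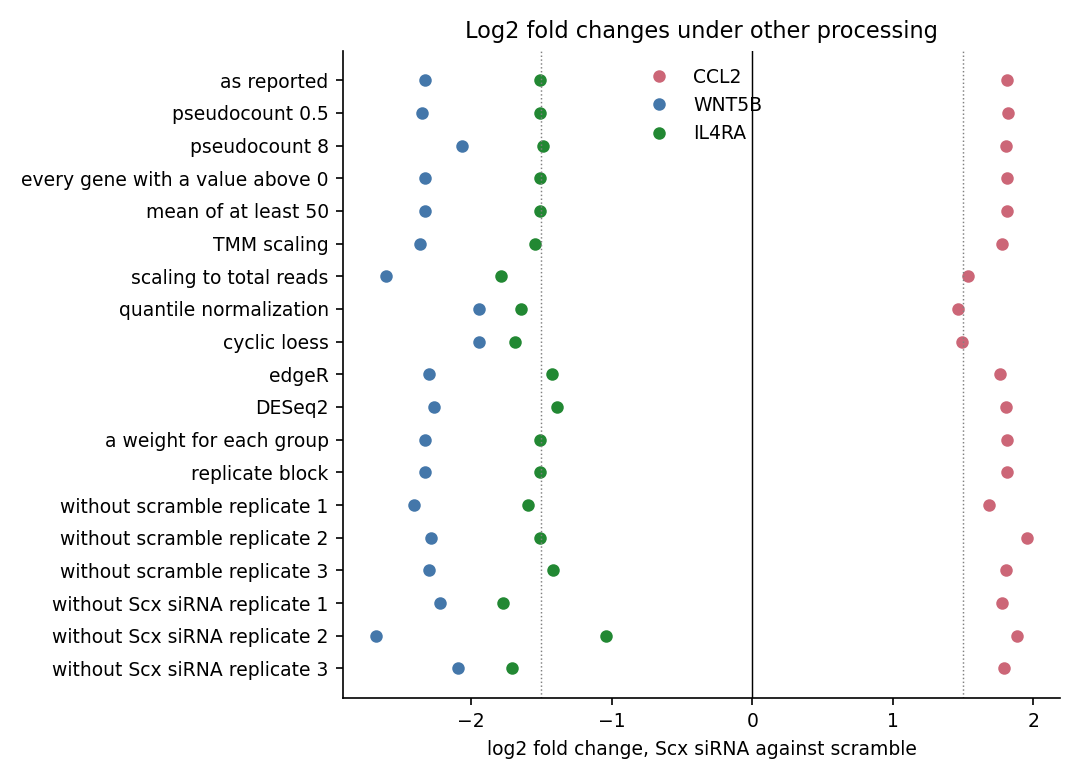
Log2 fold changes of CCL2, WNT5B and IL4RA (horizontal axis) as reported and under 18 alternatives (rows), with dotted lines at a size of 1.5. CCL2 lies between 1.47 and 1.96, WNT5B between -2.68 and -1.94 and IL4RA between -1.79 and -1.04.

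By Pearson's r of log2(normalized count + 1) over the 6 libraries, the genes most like each of the 3 were looked for among the 86 other genes that the tables of the study name and that had a mean of at least 5. With 2 groups of 3 libraries, such a correlation mostly carries the difference between the groups, and the libraries share their scaling. CCL2 was most like ANXA1 (r = 0.970), FAP (r = 0.969) and TPT1 (r = 0.969). ANXA1, annexin A1, is a phospholipid-binding protein with anti-inflammatory action, and FAP, fibroblast activation protein, is a cell-surface protease of activated fibroblasts. FAP had 9326 ± 806 normalized counts with scramble and 31582 ± 5434 with Scx siRNA (SD, n = 3 each). The gene most unlike CCL2 was that of the proteoglycan aggrecan, ACAN (r = -0.996), which had 495 ± 67.3 and 114 ± 5.24.

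WNT5B was most like USF1 (r = 0.996), PRRC2C (r = 0.992) and AHNAK (r = 0.983). USF1 is itself a basic helix-loop-helix transcription factor, and it had 308 ± 25.0 normalized counts with scramble and 142 ± 30.4 with Scx siRNA (SD, n = 3 each). WNT5B was most unlike PRRX1 (r = -0.965), a homeobox gene of limb mesenchyme, with 3174 ± 121 and 3812 ± 89.8. IL4RA was most like the gelatinase gene MMP2 (r = 0.996), the growth factor gene TGFB3 (r = 0.985) and XG (r = 0.979), and most unlike the intermediate filament gene VIM (r = -0.988). MMP2 had 14133 ± 483 normalized counts with scramble and 7850 ± 2259 with Scx siRNA, and VIM had 84348 ± 2739 and 119400 ± 27895 (SD, n = 3 each). Among themselves, WNT5B and IL4RA had r = 0.67, CCL2 and WNT5B r = -0.95, and CCL2 and IL4RA r = -0.78.

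A list of 23 other signalling genes paired with an identifier was made by role and not by how they moved. It does not hold every such gene that the study names, and leaves out PDE8A and CYTH3, for example. Of the 23 listed, 18 had a mean high enough to test, and 4 were called (1 higher, 3 lower), a share of 22.2% against 25.0% of all genes tested. The groups did not overlap for 10 of the 18, where 48.1% of all genes tested had groups that did not overlap. The median log2 fold change of the 18 was -0.95, against -0.20 for all genes tested, with 15 below 0 and 3 above. The counts below 0 given here were not set against the share of all genes below 0. Several of the 18 had low counts, where values were more negative in general. Among genes with a mean of at least 50 the medians were -0.65 and -0.03, with 10 of 13 signalling genes below 0. With quantile normalization the medians were -0.60 and -0.02, and 13 of the 18 were below 0. Of the 5 not tested, the ligand ANGPTL7, the receptor UTS2R and the adhesion gene SELE were at 0 reads in all 6 libraries. GPR83, a G protein-coupled receptor, had 1 read in a single scramble library, and DPP4, a protease that trims chemokines, had 11 reads in the first Scx siRNA library and 0 in the other 5.

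None of the 3 other Wnt genes was called. CTNNB1, beta-catenin, had 18388, 15513 and 16528 normalized counts with scramble and 24290, 32059 and 19718 with Scx siRNA. Its groups did not overlap, with a difference of 0.57 ± 0.23 on the log2 scale (± standard error, limma adjusted p = 0.1098). Without the third Scx siRNA library CTNNB1 was at 0.73 (adjusted p = 0.0460 from limma), and DESeq2 on the recovered reads gave 0.59 (adjusted p = 0.0410). Scaling moved it the other way, to 0.29 with total reads, 0.26 with quantile normalization and 0.16 with cyclic loess (adjusted p = 0.300, 0.363 and 0.546 from limma). DKK3, a secreted protein of the Dickkopf family, had 307 to 418 normalized counts with scramble and 156 to 379 with Scx siRNA, groups that overlapped (adjusted p = 0.221 from limma). SFRP2, a secreted Wnt-binding protein, rested on 0 to 22 reads per library and had an adjusted p of 0.380 from limma, and its sign depended on the scaling.

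Among the 6 other ligands tested, TGFB3 was called. It had 3173, 3344 and 3482 normalized counts with scramble and 1847, 1189 and 1897 with Scx siRNA, so every Scx siRNA library lay below every scramble library. The difference was -1.05 ± 0.21 on the log2 scale (± standard error, limma adjusted p = 0.0146). TGFB1, from the same family, had 445, 411 and 423 with scramble and 247, 69.8 and 312 with Scx siRNA, or -1.27 ± 0.53 on the log2 scale (limma adjusted p = 0.118). As for IL4RA, the second Scx siRNA library was the lowest for TGFB1, and without it the log2 fold change was -0.61 with an adjusted p of 0.0232 from limma. Of the other alternatives, the weight for each group alone brought TGFB1 below 0.05 (adjusted p = 0.0359). SEMA3B, NOV, FGF18 and C1QTNF2 were not called, and the first 3 of these each had 0 reads in a single Scx siRNA library. The weight for each group alone brought SEMA3B below 0.05 (limma adjusted p = 0.0374). Of the 2 genes for IGF-binding proteins, secreted carriers that limit access of IGF to its receptor, IGFBP5 was called. It had 34.1, 31.1 and 29.4 normalized counts with scramble and 0, 0 and 4.14 with Scx siRNA, the last being 3 reads (limma adjusted p = 0.0162). Its Scx siRNA reads per unit of library size came to 3.78% of scramble (exact 95% counting interval 0.769 to 11.3%). The fitted log2 fold change of -4.23 ± 0.89 rests on the pseudocount and the scaling, being -4.93 with a pseudocount of 0.5, -2.10 with 8, -2.92 with quantile normalization and -2.81 with cyclic loess. IGFBP6 was at -1.42 ± 0.51 on that scale (limma adjusted p = 0.0785), and at -0.87 with an adjusted p of 0.0474 without the second Scx siRNA library. Of the other alternatives, DESeq2 alone brought IGFBP6 below 0.05 (adjusted p = 0.0339). The receptor genes NTRK2 and SDC1 had adjusted p values of 0.451 and 0.356 from limma.

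Of the 4 genes of inflammation tested, ANXA1 rose and GSDMD fell. ANXA1 had 17591, 17871 and 15075 normalized counts with scramble and 39810, 42261 and 37542 with Scx siRNA, or 1.25 ± 0.18 on the log2 scale (± standard error, limma adjusted p = 0.00545). GSDMD, gasdermin D, the pore-forming protein through which interleukin-1 leaves dying cells, had 110.2, 130.2 and 110.0 with scramble and 27.1, 27.9 and 34.5 with Scx siRNA. This is -1.94 ± 0.34 on the log2 scale (limma adjusted p = 0.00919). ATF3, a transcription factor induced by stress, had 56.6, 63.0 and 66.5 against 102.2, 108.6 and 74.6, groups that did not overlap, with a log2 fold change of 0.59 and an adjusted p of 0.218 from limma. RNF41, a ubiquitin ligase that acts on cytokine receptors, had an adjusted p of 0.373 from limma. CREBBP, a coactivator that STAT6 and many other transcription factors recruit, had 1686 ± 118 and 973 ± 346 normalized counts (SD, n = 3 each) or -0.85 ± 0.28 on the log2 scale (limma adjusted p = 0.0592). Its adjusted p was below 0.05 in 5 of the 12 alternatives that kept every library, and was 0.00615 without the second Scx siRNA library.

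Leaving out a scramble library removed 3 or all of the 4 calls, whereas at least 4 signalling genes were called without any 1 Scx siRNA library. When the scramble libraries were left out in turn, from replicate 1 to replicate 3, the adjusted p from limma was 0.0624, 0.0814 and 0.0821 for TGFB3, 0.0816, 0.0931 and 0.0893 for IGFBP5, and 0.0597, 0.0841 and 0.0690 for GSDMD. ANXA1 was at 0.0505 without the second scramble library and at 0.0517 without the third. The number of signalling genes called by limma was then 1, 0 and 0, with 5, 4 and 5 at an unadjusted p under 0.05, and it was 4, 7 and 5 when the Scx siRNA libraries were left out in turn. Over all genes tested the calls numbered 853, 476 and 538 without a scramble library, and 2652, 4888 and 3695 without an Scx siRNA library.

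**Figure D5:**
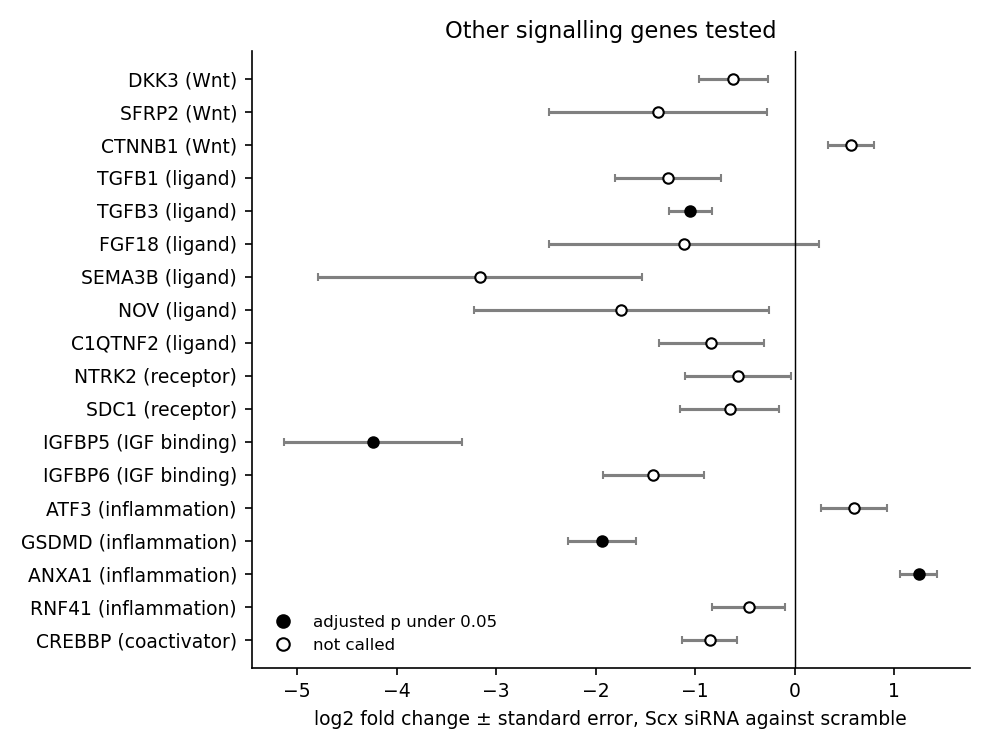
Log2 fold change ± standard error of Scx siRNA against scramble (horizontal axis) for the 18 other signalling genes tested, with their role in brackets and filled points for an adjusted p under 0.05 from limma. The filled points are TGFB3 (-1.05), IGFBP5 (-4.23), GSDMD (-1.94) and ANXA1 (1.25).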

How the data were processed

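RNA-seq values of 6 libraries of equine tenocytes, 3 per group, were used. After trimming with Trimmomatic the authors used HISAT2 2.0.3 and EquCab2 for alignment and HTSeq for assignment to Ensembl genes, and they deposited normalized counts, a signal in which each count was divided by the size factor that DESeq2 1.12.4 gave the library. The authors also deposited 6 columns of their own comparison, among them a log2 fold change, a Wald score and a p-value per gene, and none of these was used. Library columns were matched to samples by the sample number.

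Dividing the deposited values of a library by the value of 1 read gave whole numbers (100% within 0.01), so reads were recovered, from 6539504 to 12213421 per library. The fit used limma 3.58.1 (lmFit and eBayes with a trend, R 4.3.3) on log2(normalized count + 1) of the 11517 genes whose mean over the 6 libraries was 5 or more. It had no covariates, its p-values were two-sided, and the Benjamini-Hochberg method adjusted them over these genes. A gene was called at an adjusted p under 0.05. The fits were tested on simulated data that had the same dispersion (spread between libraries) in both groups. In the real libraries edgeR's common dispersion was 0.0129 with scramble and 0.36 with Scx siRNA. That test therefore does not cover groups of unequal spread. The genes, lists and alternatives were chosen with earlier results of these data known, so the contrast between the groups is given without a test for CCL2, WNT5B and IL4RA. The alternatives were other pseudocounts, filters and scalings, edgeR 4.0.16 and DESeq2 1.42.0 on the recovered reads, weights by group, the replicate number as a block, and leaving out every library in its turn. The other genes named are 23 signalling genes that the tables of the study pair with an identifier, and for each of the 3 genes the 3 most like it and the 1 most unlike it by Pearson's r. The reference table (RefSeq, assembly TB-T2T) matched 0 of the 26992 identifiers by Ensembl entry and the Scx mRNA by accession, so gene names are those of the study's tables, and no coordinates are given because EquCab2 coordinates were not used here.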

Additional observations from a re-analysis of the deposited data

How the results depend on the processing

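The move of each log2 fold change was set against the gene's own SD between libraries. CCL2 moved by more than its SD with scaling to total reads (1.53), quantile normalization (1.47) and cyclic loess (1.49). The other 9 alternatives that kept every library moved it less. WNT5B went from -2.33 to -1.94 with quantile normalization and with cyclic loess. It and IL4RA moved by less than their own, larger SDs in all 12. These counts include the other filters, the weight for each group and the replicate block, which cannot change a log2 fold change. With each library left out in turn, CCL2 lay between 1.68 and 1.96, WNT5B between -2.68 and -2.09, and IL4RA between -1.77 and -1.04. The signalling genes called numbered 3 to 5 in 10 alternatives and 7 with DESeq2 and with a weight for each group, and 0 to 7 with a library left out. All genes called numbered 476 to 4888 with a library left out. Scaling to total reads gave 959 higher and 2072 lower genes, against 1487 and 1395. The sign turned for SFRP2 with quantile normalization (0.74) and cyclic loess (0.0802), for FGF18 with the same (0.50 and 0.0938), edgeR (0.29) and DESeq2 (0.33), and for C1QTNF2 with cyclic loess (0.0117). With a library left out, NOV lay between -2.75 and 0.17 and FGF18 between -2.51 and 0.34. None of these 4 genes was called under any setting run, and the cause was not tested. With a weight for each group the standard error was 0.33 for CCL2, 0.51 for WNT5B and 0.34 for IL4RA. A replicate block left the 3 log2 fold changes as they were (standard error 0.23 for CCL2, 0.50 for WNT5B and 0.34 for IL4RA), kept the number of signalling genes called at 4 and gave 2117 called genes. The study repeated its experiment 3 times to obtain 3 libraries per group, but does not state which libraries shared a repeat. Same-numbered libraries had correlations of -0.08, 0.02 and 0.17 in their deviations from the group means. The first scramble library correlated best with the second Scx siRNA library (0.21). The main fit did not use the numbers as pairs, and with 3 libraries per group these correlations cannot settle the pairing. Depth limits WNT5B most, which had 14 to 45 reads per Scx siRNA library.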
